A study of Hydra vulgaris with 30 samples.

Results

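Gene models that carried several well-counted transcripts were described in regenerating *Hydra* tips, with the share of each transcript within its model kept apart from the level of the model. A gene model was taken as the transcript identifier without its last part, so that MSTRG.2974.4 and MSTRG.2974.7 are transcripts of MSTRG.2974. Models were chosen by their counts: 2 or more of their transcripts each had at least 300 counts summed over the 30 libraries, whichever group the counts came from. This held for 13 of 43008 gene models, 12 named MSTRG and 1 named Sc4wPfr, and each of them had exactly 2 such transcripts. The files carry no gene names, and no identifier matched the gene table at hand. The models are therefore called by their identifiers throughout, with neither functions nor positions, and the tissue could not be checked by marker genes.

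The animals were *Hydra vulgaris* polyps of the strain Ind-Pune, grown as 1 clone. The treated ones received UNC0379, which inhibits SETD8 (KMT5A), the enzyme that monomethylates lysine 20 of histone H4, and the controls received 0.2% DMSO, its vehicle. Heads were cut off, and RNA came from the tips that regenerate them at 5 times, namely 0, 3, 8, 12 and 24 hours postamputation (hpa), with 3 libraries per treatment at each time. One label field gives the UNC0379 dose as 150 µM and another writes 150 mM. In the study's regeneration assay polyps were treated for 8 h before decapitation, and whether this held for the RNA libraries is not stated. All groups are whole tips of 1 clone, so that fewer cells of a type and less RNA per cell cannot be told apart, and nothing in the labels says that replicates came from separate cultures. The p-values therefore measure only the spread between these libraries, which may be technical.

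Most eukaryotic genes can give several mRNAs, through alternative promoters, alternative splicing or alternative 3′ ends. A change in which mRNA is made can occur with or without a change in the total output of the gene. QuantSeq libraries hold a tag from near the 3′ end of each polyadenylated RNA, and isoforms that end alike give the same tag. Here a tag counted for a transcript only when it overlapped that transcript alone. There were 1.03 to 1.22 ambiguous reads for each assigned read in a library (median 1.14), and these are part of no count. The ratio moved with treatment: it was 1.03 to 1.10 in the 9 UNC0379 libraries at 3, 8 and 12 hpa, against 1.14 to 1.18 in the 9 DMSO libraries at those times. At 24 hpa it was 1.12 to 1.15 with UNC0379, against 1.18 to 1.22 with DMSO, and at 0 hpa the treatments overlapped. The part of this in the shares and levels was not tested. A share below is thus the share of the uniquely assigned tags of a model, and not of its mRNA molecules. The level of a model likewise holds only its uniquely assigned tags.

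Of the 43008 models, 4926 had 2 or more annotated transcripts, and 2490 of these had at least 1 count. Only 253 of them had 300 counts or more in all. In 231 of the 253, 1 transcript reached 300 counts, and in 125 all counts lay on 1 transcript. The 13 models with a second transcript above the minimum held 0.0988% to 0.225% of the assigned reads of a library, or 145 to 1355 counts (median 752). The lowest second transcripts inside the minimum were those of MSTRG.17510, with 346 counts, and MSTRG.152, with 362. The highest outside it were those of Sc4wPfr_639.g22936, with 298 counts, MSTRG.15187, with 297, and MSTRG.675, with 295.

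The annotation gave the 13 models 47 transcripts, and 19 of these were at 0 counts throughout. In 7 models the 2 well-counted transcripts were the only ones annotated, while MSTRG.23572 had 10. Counts outside the 2 well-counted transcripts occurred in 2 models, with 15 of 2300 counts in MSTRG.12467 and 12 of 2061 in MSTRG.2974. MSTRG.23002 was the most counted model with 4851 counts, followed by MSTRG.18660 with 2522 and MSTRG.23572 with 2328. In each model the transcript with more counts over all libraries is called the larger one. The larger transcript held from 50.8% of the counts, in MSTRG.16291 and Sc4wPfr_1127.1.g1470, to 79.2% in MSTRG.12467. The larger transcript led in the summed counts of all 10 groups in 6 models, namely MSTRG.12467, MSTRG.20527, MSTRG.23002, MSTRG.23572, MSTRG.2974 and MSTRG.5420, and did not lead in at least 1 group in the other 7.

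**Figure D1:**
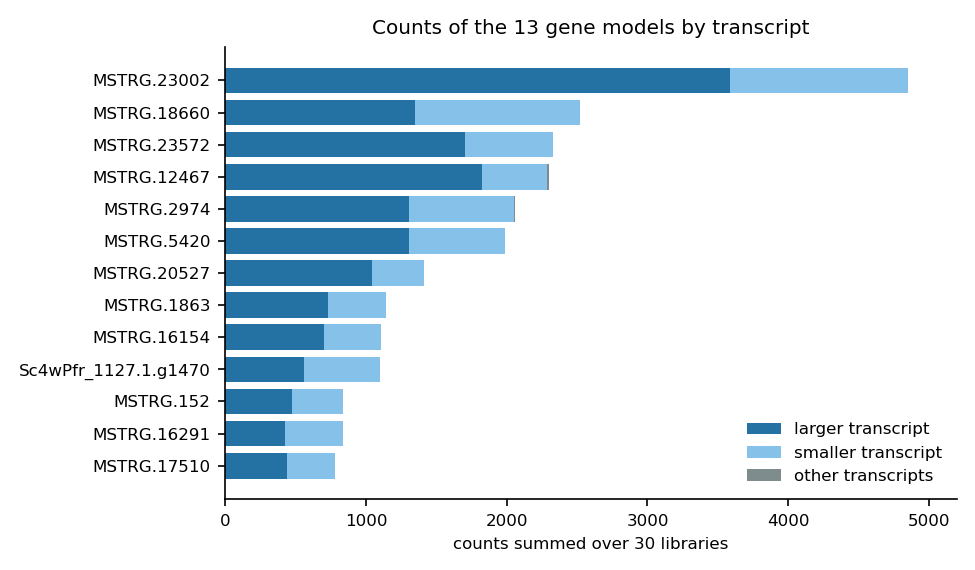
Counts summed over the 30 libraries (x axis) for each of the 13 gene models, divided into the larger transcript, the smaller transcript and all others of the model. MSTRG.23002 holds 4851 counts, and the other transcripts are visible only as slivers of 15 counts in MSTRG.12467 and 12 counts in MSTRG.2974.

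Assigned reads numbered 146798 to 811079 per library (median 515933). The smallest total was that of UNC0379 24 hpa replicate 3, in which MSTRG.16291 had 0 counts and MSTRG.152, MSTRG.1863, MSTRG.20527, MSTRG.16154 and Sc4wPfr_1127.1.g1470 had 1 to 3. This library also differed most from its group, by a chi-square per degree of freedom of 32.1 and 34.5. The other 2 libraries of that group differed by 6.14. In DMSO 24 hpa replicate 3, 98.2% of the reads did not align, against 16.5% to 69.0% elsewhere. UNC0379 0 hpa replicate 3 differed from the other replicates of its group by a chi-square per degree of freedom of 13.3 and 17.5, while those 2 differed by 2.50. DMSO 0 hpa replicate 2 also differed from its group, by 8.52 and 7.18, while the other 2 libraries of that group differed by 2.74. Calls that were lost without the first 3 of these libraries together are given with their values. Within groups, the shares of the larger transcript varied by more than counting alone gives. The chi-square per degree of freedom was 1.17 to 3.60 over the 13 models (median 1.97).

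The question put to each model was whether its transcripts changed by different amounts, which changes their shares. This was tested with the F statistic of edgeR's diffSpliceDGE in a quasi-likelihood fit over all 30 libraries, with Benjamini-Hochberg adjustment over the 27 models that had at least 2 transcripts past the filter on low counts. All 13 models and all 26 of their transcripts passed that filter. Averaged over the 5 times, UNC0379 against DMSO gave 1 call among the 13 models, where 11.1% of the 27 models tested were called, and 3 of the 13 had an unadjusted p under 0.05. The call was MSTRG.2974. The share of the larger transcript was lower under UNC0379 in 8 models and higher in 5, with differences from -13.1 to 7.36 percentage points. The sign turned in MSTRG.12467 (0.85 points) and MSTRG.1863 (0.23 points) without UNC0379 24 hpa replicate 3, and in MSTRG.16154 without any 1 of 5 libraries (lowest -0.89 points, without UNC0379 8 hpa replicate 1). The 7.36 points of MSTRG.152 became 2.03 without UNC0379 24 hpa replicate 2 and 12.1 without the 3 libraries together. MSTRG.2974 was the only one of the 13 in which the sign was the same at all 5 times. At 3 hpa its mean shares were nearly equal, 63.1% with UNC0379 and 63.4% with DMSO.

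**Figure D2:**
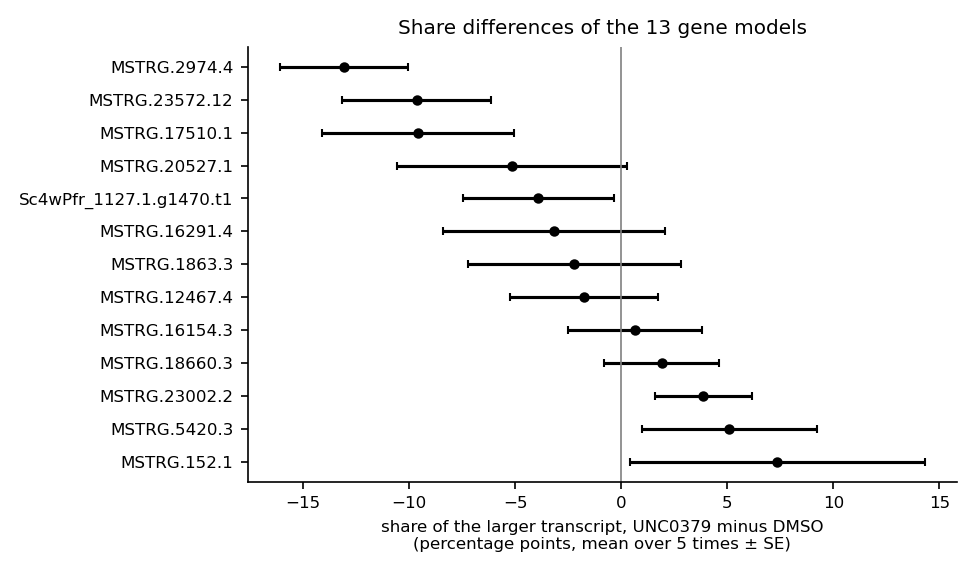
Difference in the share of the larger transcript, UNC0379 minus DMSO, in percentage points averaged over the 5 times (x axis, points, with the SE as bars) for the 13 models, ordered by size. MSTRG.2974.4 lies lowest at -13.1 points, and MSTRG.152.1 lies highest at 7.36 points with the widest bar, a value that was 2.03 points without UNC0379 24 hpa replicate 2.

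MSTRG.2974.4, the larger transcript of MSTRG.2974, took a smaller share under UNC0379. At 0 hpa it held 50.7%, 62.7% and 62.5% of the model's counts in UNC0379 libraries, against 65.1%, 71.2% and 70.1% in DMSO libraries. At 3 hpa the shares were 67.5%, 60.5% and 61.3% with UNC0379, against 67.9%, 54.7% and 67.6% with DMSO. The groups were apart at 0 hpa and overlapped at 3 hpa. At 8 hpa the shares were 58.7%, 41.6% and 70.4% with UNC0379, against 82.1%, 76.3% and 79.8% with DMSO. At 12 hpa they were 60.2%, 50.7% and 57.0% with UNC0379, against 78.2%, 66.7% and 63.9% with DMSO. At 24 hpa they were 55.9%, 59.3% and 30% with UNC0379, against 65.5%, 68.4% and 67.4% with DMSO. At 8, 12 and 24 hpa, as at 0 hpa, every UNC0379 library lay below every DMSO library. The lowest value, 30%, came from UNC0379 24 hpa replicate 3, with 20 counts for the model.

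Averaged over the times, the share of MSTRG.2974.4 was 56.6% with UNC0379 and 69.7% with DMSO, a difference of -13.1 ± 3.03 percentage points (SE, 15 libraries each). The adjusted p for usage was 0.00572 (edgeR). An exact permutation test of the same difference, two-sided, with labels exchanged within each time, gave p = 5.8e-05 and an adjusted p of 0.00078 over the 27 models. The difference came with a change in the smaller transcript. MSTRG.2974.7 was higher under UNC0379 by 0.74 ± 0.16 on the log2 scale (adjusted p = 4.3e-04, edgeR, over 5046 transcripts), while MSTRG.2974.4 had a log2 fold change of -0.04 ± 0.11 (adjusted p = 0.853). The level of the model, in uniquely assigned counts summed over its transcripts, had a log2 fold change of 0.23 ± 0.10 (adjusted p = 0.101, edgeR, over 5032 models). Without the 3 libraries named above the usage call held, with an adjusted p of 0.00435 for MSTRG.2974, and the level then passed the threshold, with a log2 fold change of 0.27 (adjusted p = 0.0312).

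Tested at single times, usage of MSTRG.2974 passed the threshold at 8 hpa (adjusted p = 0.0101), where 1 of the 13 models was called against 7.41% of all models tested. At that time MSTRG.2974.7 had 46.9, 88.5 and 36.1 CPM (edgeR's counts-per-million scale, a count relative to the assigned reads of its library, scaled by the TMM factors) with UNC0379, against 18.9, 19.1 and 18.5 CPM with DMSO. The 3 DMSO values rest on 10, 9 and 15 counts. The transcript was higher by 1.61 ± 0.37 on the log2 scale (adjusted p = 0.00262), and MSTRG.2974.4 had a log2 fold change of -0.11 ± 0.25 (adjusted p = 0.91). The call leaned on UNC0379 8 hpa replicate 2. Without it the difference between the log2 fold changes of MSTRG.2974.4 and MSTRG.2974.7 was -1.12 in place of -1.72, and the adjusted p was 0.465. Leaving out DMSO 8 hpa replicate 1 or replicate 3 also ended the call for MSTRG.2974, with adjusted p-values of 0.0875 and 0.162. At 0, 3, 12 and 24 hpa the adjusted p-values for this model were 0.623, 0.963, 0.791 and 0.36. At 0 and at 3 hpa none of the 13 models was called, where 0% of all models tested were called at either time. At an unadjusted p under 0.05 there were 0 and 1 of the 13 (edgeR), and without DMSO 3 hpa replicate 2 the count called at 3 hpa was 1.

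MSTRG.23572, the model with the most annotated transcripts, was called for usage between treatments at 12 and at 24 hpa. That the treatment effect at 24 hpa differed from that at 0 hpa was not shown. MSTRG.23572.12, its larger transcript, held 73.1%, 78.4% and 78.1% of the counts with UNC0379 at 0 hpa, against 83.8%, 77.8% and 72.2% with DMSO. At 3 hpa it held 75.9%, 95.6% and 81.0% with UNC0379, against 88.1%, 76.2% and 69.8% with DMSO. At 8 hpa it held 75.0%, 72.2% and 73.0% with UNC0379, against 68.0%, 79.5% and 65.6% with DMSO. The treatments overlapped at each of these times. At 12 hpa the shares were 60.4%, 66.7% and 66.2% with UNC0379, against 84.6%, 80.3% and 87.5% with DMSO. At 24 hpa they were 57.3%, 61.9% and 17.6% with UNC0379, against 77.0%, 84.4% and 82.2% with DMSO. At both of these times the treatments were apart, with UNC0379 lower, and 17.6% was 3 of 17 counts in UNC0379 24 hpa replicate 3.

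Usage of MSTRG.23572 passed the threshold at 12 hpa, with an adjusted p of 0.0409, and at 24 hpa, with one of 0.00787 (edgeR). It was the 1 call among the 13 models at each of these times, where 7.41% of all models tested were called at 12 hpa and 7.41% at 24 hpa. Here too, only the smaller transcript passed the threshold. MSTRG.23572.2 had 85.7, 79.0 and 59.7 CPM with UNC0379 at 12 hpa, against 15.9, 25.0 and 13.4 CPM with DMSO, a log2 fold change of 2.04 ± 0.38 (adjusted p = 3.3e-04). At 24 hpa it had 113, 89.7 and 106 CPM with UNC0379, against 36.6, 28.4 and 27.0 CPM with DMSO, a log2 fold change of 1.74 ± 0.37 (adjusted p = 0.00169). The larger transcript did not pass the threshold at either time, with log2 fold changes of 0.51 ± 0.28 and -0.15 ± 0.29. The level of the model was higher under UNC0379 at 12 hpa, with a log2 fold change of 0.90 ± 0.23 and an adjusted p of 0.0111. The log2 fold change of its level was 0.39 ± 0.24 at 24 hpa (adjusted p = 0.422).

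The call for MSTRG.23572 at 12 hpa stood near the threshold and was lost in 24 of the 30 fits that left out 1 library, with adjusted p-values up to 0.263. These fits tested 29 to 30 models in place of 27. Where a lost call left out a library of another time, the adjusted p was up to 0.0594. The difference between the log2 fold changes of MSTRG.23572.12 and MSTRG.23572.2 was then -1.53, as with all libraries. At 24 hpa the call held without UNC0379 24 hpa replicate 3 (adjusted p = 0.0185) and was lost without DMSO 24 hpa replicate 2 (0.0552), without DMSO 24 hpa replicate 3 (0.0677) and without the 3 libraries together (0.0594). Averaged over the times the share of MSTRG.23572.12 was 68.8% with UNC0379 and 78.5% with DMSO, a difference of -9.65 ± 3.51 percentage points, and the adjusted p for usage was 0.174. Whether the treatment effect at 24 hpa differed from that at 0 hpa was tested as an interaction. None of the 13 models was called for it, where 0% of all models tested were called, and 2 had an unadjusted p under 0.05. These were MSTRG.23572 (adjusted p = 0.227) and Sc4wPfr_1127.1.g1470 (adjusted p = 0.234), both from edgeR.

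**Figure D3:**
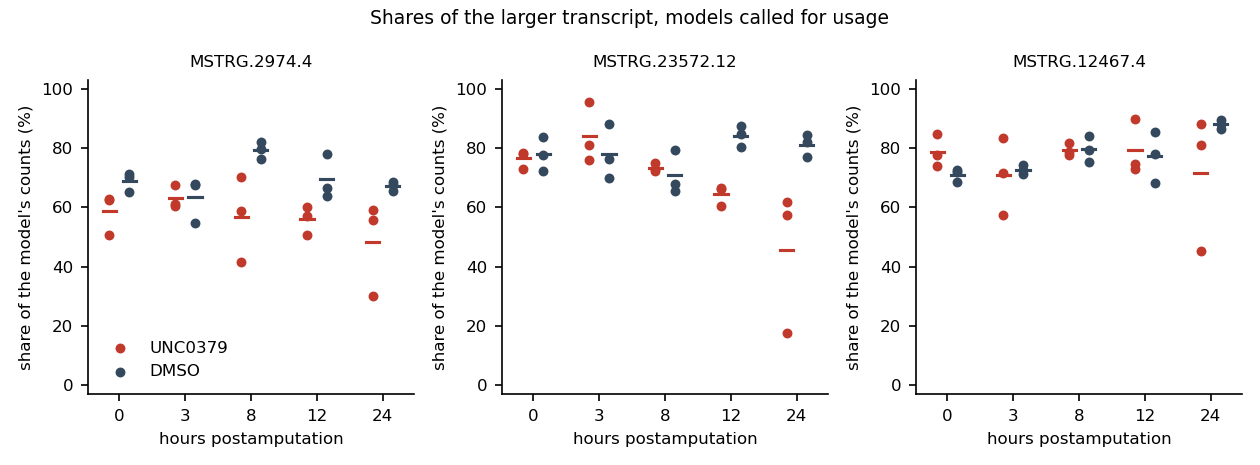
Share of the larger transcript in the counts of its model (y axis, %) at 0 to 24 hpa (x axis) for the 3 models called for usage. Each point is 1 library, UNC0379 left of DMSO, and bars are means of 3 libraries. MSTRG.2974.4 is lower with UNC0379 at 0, 8, 12 and 24 hpa, MSTRG.23572.12 at 12 and 24 hpa, and MSTRG.12467.4 lies at 86.6% to 89.7% in DMSO at 24 hpa.

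The change after decapitation was followed in DMSO tips, with each later time set against 0 hpa. The 4 comparisons share the 0 hpa libraries. At 24 hpa 1 of the 13 models was called for usage, where 3.7% of all models tested were called. At 3, 8 and 12 hpa none was called, where 0% of all models tested were called at each time, and 1, 3 and 1 of the 13 had an unadjusted p under 0.05. Without UNC0379 0 hpa replicate 3 the counts called at 8 and 12 hpa were 2 and 1, and without DMSO 0 hpa replicate 1 they were 1 and 1. The call at 24 hpa was MSTRG.12467, the model with the most unequal transcripts. MSTRG.12467.4 held 89.7%, 86.6% and 88.3% of the counts at 24 hpa in DMSO, against 72.0%, 68.5% and 72.5% at 0 hpa, with no overlap. The larger transcript had 204, 230 and 267 CPM at 24 hpa, against 65.6, 80.5 and 48.9 CPM at 0 hpa, a log2 fold change of 1.87 ± 0.32 (adjusted p = 1.4e-04). MSTRG.12467.2 had 20.9, 33.2 and 33.8 CPM at 24 hpa, against 25.5, 37.0 and 18.5 CPM at 0 hpa, a log2 fold change of 0.18 ± 0.36 (adjusted p = 0.808).

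The adjusted p for usage of MSTRG.12467 was 0.0442 (edgeR). The call held without the 3 libraries together (0.0396) but was lost in 28 of the 30 fits that left out 1 library, with adjusted p-values up to 0.154, so that it stood at the edge of the threshold. In those fits 29 to 30 models were tested in place of 27. Under UNC0379, MSTRG.12467.4 held 88.1%, 81.1% and 45.5% at 24 hpa, against 84.9%, 77.8% and 73.9% at 0 hpa. The last of the 24 hpa values is 5 of 11 counts. Usage of this model at 24 against 0 hpa under UNC0379, a comparison added after the data were seen, had an adjusted p of 0.777. The interaction for MSTRG.12467 had an adjusted p of 0.502, so that a difference between the treatments in this change was not shown.

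Under UNC0379, the same comparisons of 3, 8 and 12 hpa with 0 hpa called none of the 13 models, where 0% of all models tested were called at each time. At 24 hpa none of the 13 was called, where 3.7% of all models tested were called. The counts at an unadjusted p under 0.05 were 2, 1, 1 and 1 of the 13 at 3, 8, 12 and 24 hpa. Without UNC0379 24 hpa replicate 2, which left 2 libraries of which 1 was the shallowest, 4 of the 13 were called at 24 hpa, namely MSTRG.20527, MSTRG.23572, MSTRG.5420 (adjusted p = 0.0366 each) and MSTRG.152 (0.0455).

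In MSTRG.16291 and MSTRG.1863 the mean shares had a wide range over the times with both treatments, although none of the comparisons with 0 hpa passed the threshold. Whether shares differed more between times than between treatments was not tested. Group means also ranged widely in other models, from 26.7% to 81.4% in MSTRG.152 and from 36.2% to 81.5% in MSTRG.20527. Later times were not tested against each other. The larger transcript of MSTRG.16291, MSTRG.16291.4, had mean shares with UNC0379 of 67.7%, 33.1%, 49.0%, 37.3% and 84.9% from 0 to 24 hpa. In DMSO the means were 65.8%, 51.7%, 41.8%, 45.6% and 83.0%, and the first of these holds 89.3% in DMSO 0 hpa replicate 2, where the other 2 libraries had 54.8% and 53.3%. At 24 hpa the DMSO libraries had 72.7%, 86.7% and 89.5%, all above the 37.2% to 54.5% at 12 hpa. MSTRG.16291.1 therefore led at 12 hpa with both treatments, and MSTRG.16291.4 led at 0 and 24 hpa. The unadjusted p for usage in DMSO was 0.0349 at 8 hpa against 0 hpa (adjusted p = 0.314), and at 24 hpa the adjusted p was 0.253. The 24 hpa shares rest on 45 counts in DMSO and on 30 counts in 2 UNC0379 libraries.

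MSTRG.1863.3, the larger transcript of MSTRG.1863, had mean shares with UNC0379 of 49.0%, 73.6%, 77.0%, 62.4% and 24.4% from 0 to 24 hpa. In DMSO the means were 43.8%, 64.6%, 73.0%, 74.5% and 41.7%. The 24.4% includes 0 of 1 count in UNC0379 24 hpa replicate 3, and the summed counts of that group gave 33.3%, or 10 of 30. By library, the DMSO shares were 76.0%, 81.5% and 61.5% at 8 hpa, against 55.7%, 44.0% and 31.7% at 0 hpa. The groups did not overlap, and the adjusted p for usage was 0.0558. Without UNC0379 0 hpa replicate 3 it was 0.0376 for MSTRG.1863, and MSTRG.23002 was then called too, with 0.0452. MSTRG.1863 was also called without DMSO 0 hpa replicate 1 (0.0279) and without DMSO 8 hpa replicate 3 (0.0401), and MSTRG.23002 without UNC0379 24 hpa replicate 3 (0.0421). The level of MSTRG.1863 fell in DMSO at 24 hpa, with 33.5, 30.4 and 13.5 CPM, against 74.0, 55.1 and 78.5 CPM at 0 hpa. The log2 fold change was -1.49 ± 0.45 (adjusted p = 0.029). The call was lost without DMSO 0 hpa replicate 1 (0.118) or replicate 3 (0.121), and without DMSO 24 hpa replicate 2 (0.0669) or replicate 3 (0.231). Between treatments neither model passed the threshold, with adjusted p-values averaged over the times of 0.697 for MSTRG.16291 and 0.92 for MSTRG.1863.

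UNC0379 0 hpa replicate 3 stood away from its group in several of these shares. It had 92.9% for MSTRG.16291.4, where the other 2 libraries of its group had 47.6% and 62.5% and the 24 hpa libraries with counts had 72.7% to 90.9%. It had 27.3% for MSTRG.1863.3, where the other 2 had 54.3% and 65.5%. It had 96.2% for MSTRG.5420.3, the larger transcript of MSTRG.5420, where the other 2 had 64.3% and 60.0%. In MSTRG.5420 the shares at 24 hpa were 92.2%, 69.6% and 100% with UNC0379, against 54.1%, 86.8% and 86.8% with DMSO. At 3, 8 and 12 hpa all 18 libraries lay between 52.1% and 72.9%. The adjusted p for usage of MSTRG.5420 in DMSO at 24 against 0 hpa was 0.117, from an unadjusted p of 0.00865. Without this library the averaged usage call for MSTRG.2974 had an adjusted p of 0.00469.

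**Figure D4:**
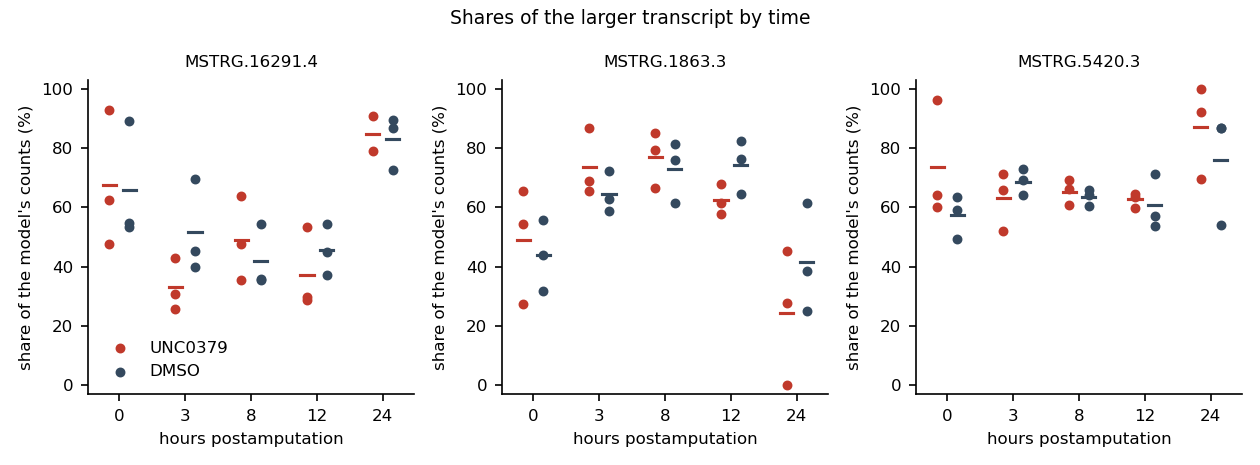
Share of the larger transcript (y axis, %) at 0 to 24 hpa (x axis) for MSTRG.16291, MSTRG.1863 and MSTRG.5420. Each point is 1 library, UNC0379 left of DMSO, and bars are means. MSTRG.16291.4 is lowest at 3 to 12 hpa and MSTRG.1863.3 highest then, with both treatments, and the UNC0379 points of 92.9% and 96.2% at 0 hpa are replicate 3.

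The level of the models was compared apart from their shares. Averaged over the times, 3 of the 13 models were called for level between UNC0379 and DMSO, where 18.8% of the 5032 models tested were called. Of these, 2 were higher under UNC0379, where 6.04% of all models were called higher, and 1 was lower, where 12.8% were called lower. The median log2 fold change was 0.23 over the 13 models and 0.0074 over all models tested. Without UNC0379 24 hpa replicate 3, 6 of the 13 were called, the others being MSTRG.20527 (log2 fold change 0.35, adjusted p = 0.0114), MSTRG.23572 (0.31, adjusted p = 0.013) and MSTRG.2974 (0.26, adjusted p = 0.0427).

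MSTRG.23002 showed the largest change in level of the 13, and both its transcripts took part. The model had 157, 192 and 213 CPM with UNC0379 at 0 hpa, against 172, 121 and 182 CPM with DMSO. At 3 hpa it had 521, 593 and 636 CPM with UNC0379, against 93.9, 81.8 and 88.3 CPM with DMSO. At 8 hpa it had 818, 909 and 821 CPM with UNC0379, against 148, 80.3 and 94.6 CPM with DMSO. The treatments overlapped at 0 hpa and were far apart at 3 and 8 hpa. At 12 hpa it had 290, 405 and 287 CPM with UNC0379, against 83.7, 104 and 85 CPM with DMSO. At 24 hpa it had 491, 606 and 263 CPM with UNC0379, against 183, 171 and 149 CPM with DMSO.

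Averaged over the times MSTRG.23002 was higher under UNC0379 by 1.85 ± 0.11 on the log2 scale (adjusted p = 5.0e-16, edgeR). The larger transcript, MSTRG.23002.2, was higher by 1.94 ± 0.11 and the smaller, MSTRG.23002.1, by 1.68 ± 0.17. At 0 hpa the log2 fold change of the level was 0.23 ± 0.24 (adjusted p = 0.716), and at 8 hpa it was 2.98 ± 0.25 (adjusted p = 1.5e-10). The treatment effect at 24 hpa exceeded that at 0 hpa by 1.25 ± 0.34 (adjusted p = 0.0313). The share of MSTRG.23002.2 was 75.8% with UNC0379 and 71.9% with DMSO, and the adjusted p for usage was 0.679. At 8 hpa the shares were 71.4%, 72.0% and 76.6% with UNC0379, against 57.7%, 54.1% and 67.5% with DMSO, with no overlap, and the adjusted p was 0.393. In DMSO alone, these 8 hpa shares compared with 79.6%, 92.7% and 74.8% at 0 hpa (adjusted p = 0.0558).

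MSTRG.18660, the second most counted model, was also higher under UNC0379, with a log2 fold change of 0.50 ± 0.13 (adjusted p = 0.0051). At 8 hpa it had 219, 206 and 187 CPM with UNC0379, against 110, 122 and 141 CPM with DMSO. At 12 hpa it had 221, 282 and 273 CPM with UNC0379, against 181, 157 and 134 CPM with DMSO. The groups did not overlap at either time, but the level of MSTRG.18660 passed the threshold at no single time (adjusted p = 0.155 at 8 hpa and 0.158 at 12 hpa). At 0 hpa its log2 fold change was -0.02, with overlapping groups, and at 24 hpa UNC0379 replicate 3, with 43.8 CPM, lay below all DMSO libraries. The share of MSTRG.18660.3 was 54.2% with UNC0379 and 52.3% with DMSO (adjusted p for usage 0.697).

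MSTRG.152 was the model that was lower. It had 55.6, 34.6 and 30.2 CPM with UNC0379 at 0 hpa, against 82.5, 90.4 and 65.4 CPM with DMSO. At 3 hpa it had 37.6, 34.4 and 34.9 CPM with UNC0379, against 115, 100 and 80.5 CPM with DMSO. At 24 hpa it had 11.6, 7.96 and 7.30 CPM with UNC0379, against 54.2, 39.8 and 42.3 CPM with DMSO. UNC0379 libraries lay below DMSO libraries at all 5 times, and the level fell by 1.38 on the log2 scale (SE 0.16, adjusted p = 1.2e-08). Both transcripts were lower, MSTRG.152.1 by a log2 fold change of -1.14 ± 0.24 and MSTRG.152.3 by -1.84 ± 0.23.

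The share of MSTRG.152.1 was 58.8% with UNC0379 and 51.5% with DMSO, with an unadjusted p for usage of 0.0423 and an adjusted p of 0.228. At 3 hpa it was 75.0%, 76.5% and 92.6% with UNC0379, against 47.7%, 75.0% and 39.2% with DMSO (unadjusted p = 0.0063, adjusted p = 0.17). At 24 hpa the UNC0379 shares were 0%, 80.0% and 0%, of 5, 5 and 1 counts, and carry little information. Without UNC0379 24 hpa replicate 1 the averaged usage of MSTRG.152 passed the threshold (adjusted p = 0.0441), so that 2 of the 13 models were then called.

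**Figure D5:**
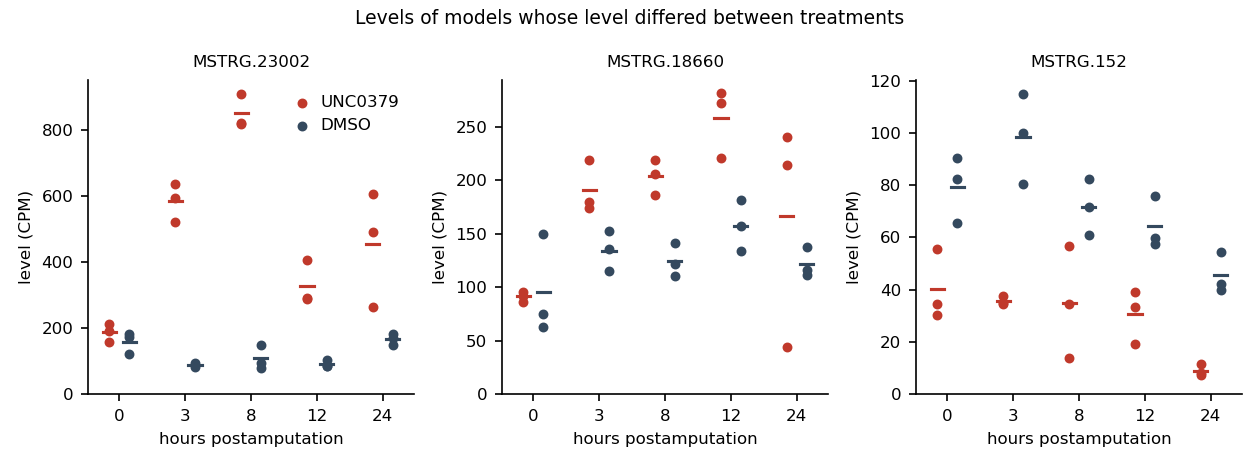
Level in CPM (y axis) at 0 to 24 hpa (x axis) of the 3 models called for level between treatments. Each point is 1 library, UNC0379 left of DMSO, and bars are means. MSTRG.23002 reaches 818 to 909 CPM with UNC0379 at 8 hpa, against 80.3 to 148 CPM with DMSO, and MSTRG.152 lies lower with UNC0379 at every time.

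Transcript by transcript, 8 of the 26 were called between UNC0379 and DMSO averaged over the times, where 19.1% of the 5046 transcripts tested were called. Higher under UNC0379 were 6, where 6.42% of all transcripts were called higher, and lower were 2, where 12.6% were called lower. The median log2 fold change was 0.069 over the 26 and 0.014 over all transcripts tested. No model had its transcripts called in opposite directions. Both transcripts were called in MSTRG.23002 and MSTRG.152, and only 1 in MSTRG.2974, MSTRG.23572, MSTRG.18660 and MSTRG.17510. MSTRG.23572.2 was higher by 0.64 ± 0.18 (adjusted p = 0.00843) and MSTRG.18660.3 by 0.61 ± 0.14 (adjusted p = 8.8e-04). MSTRG.17510.2 was higher by 0.59 ± 0.21 (adjusted p = 0.0417), a call that was lost in 16 of the 30 fits that left out 1 library. Without the 3 libraries together the log2 fold change of MSTRG.17510.2 was 0.42 (adjusted p = 0.136), and with no filter on low counts its adjusted p was 0.140. The share of MSTRG.17510.1, its partner, was 50.1% with UNC0379 and 59.7% with DMSO, and the adjusted p for usage was 0.431. MSTRG.17510.2 and MSTRG.152.3, with 346 and 362 counts, were the well-counted transcripts nearest to the count minimum. The minimum was set on counts summed over both treatments, so that each may have reached it through the treatment in which it was higher. Their calls, and the level call of MSTRG.152, are therefore not independent of how the models were chosen.

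In DMSO tips at 24 against 0 hpa, 3 of the 13 models were called for level, where 9.16% of the 5032 models were called. Higher at 24 hpa were 2, where 3.68% of all models were called higher, and 1 was lower, where 5.48% were called lower. The median log2 fold change was 0.065 over the 13 and -0.068 over all models tested. MSTRG.12467 was higher by 1.54 ± 0.27 (adjusted p = 1.5e-04) and held its call in all 30 fits that left out 1 library. MSTRG.23572 was higher by 0.74 ± 0.24 (adjusted p = 0.047), a call that was lost in 21 of those 30 fits. MSTRG.1863 was the model that was lower. Without any 1 of DMSO 0 hpa replicate 1, DMSO 0 hpa replicate 3, DMSO 24 hpa replicate 2 and DMSO 24 hpa replicate 3, the count was 1. In MSTRG.23572 and MSTRG.1863 the usage comparison at this time had adjusted p-values of 0.818 and 0.96, so that of the 3 only MSTRG.12467 passed both tests.

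The other models gave no call for usage or for level averaged over the times. MSTRG.16154, MSTRG.20527, MSTRG.5420, Sc4wPfr_1127.1.g1470, MSTRG.12467, MSTRG.16291, MSTRG.1863 and MSTRG.17510 had log2 fold changes in level from -0.18 to 0.29. The difference in the share of MSTRG.16154.3, averaged over the times, was 0.65 ± 3.16 percentage points, with opposite signs at 12 and 24 hpa. It was -13.1 ± 3.09 points at 12 hpa and 17.4 ± 4.06 points at 24 hpa. The groups did not overlap at either time, and usage of MSTRG.16154 was called at neither. One of the UNC0379 shares at 24 hpa rests on 3 counts. The averaged difference of MSTRG.20527.1 was -5.15 ± 5.43 points, and its 24 hpa shares with UNC0379 were 37.5%, 71.2% and 0%, the last of 2 counts. That of MSTRG.5420.3 was 5.10 ± 4.14 points and that of Sc4wPfr_1127.1.g1470.t1 was -3.93 ± 3.56 points.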

How the data were processed

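The authors deposited raw counts per transcript, 1 file per library, made from QuantSeq 3′ mRNA reads with Trimmomatic, HISAT2 and HTSeq, per the submitters' processing notes. Not given in the sources used here are the tool versions, build, annotation and use of strand in counting. Molecular identifiers are not mentioned, so that errors cover counting and library spread only. HTSeq's summary lines stayed out of library sizes and tests.

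R 4.3.3 and edgeR 4.0.16 were used. After filterByExpr 5046 transcripts remained, which were normalized by TMM (factors 0.902 to 1.10) and fitted with a robust quasi-likelihood model with 1 coefficient per group (common biological coefficient of variation 22.6%). Usage was tested with diffSpliceDGE over 27 models, level on counts summed per model (5032 models) and transcripts one by one, with Benjamini-Hochberg adjusted p-values from edgeR at a threshold of 0.05. The SE of a log2 fold change is its size divided by the square root of F. Shares are means of library shares, over libraries with at least 1 count of the model. Single values of 3 against 3 libraries were not tested alone, since no exact p under 0.1 is possible there. Methods were tested on simulated data. Alternatives used limma 3.58.1 and DESeq2 1.42.0, and figures matplotlib 3.10.9.

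The members and lists were chosen with earlier results of these data known. The rule for named models took the 3 most counted, those with the largest share differences among models called for usage averaged over the times or in DMSO at 24 against 0 hpa, called models whose leading transcript differed between treatments (none), the 2 with the largest level change among those called for level with a usage adjusted p above 0.5, models with transcripts called in opposite directions (none), and those nearest to the count minimum. The others were named after their values were seen. The UNC0379 comparisons of later times with 0 hpa were also added then.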

Additional observations from a re-analysis of the deposited data

How the results depend on the processing

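Direction held for every single result called, in all alternatives run. The count of models called for usage averaged over the times was 0 of 13, in place of 1, with no filter on low counts, where 687 models were tested, and with Simes combination (adjusted p for MSTRG.2974 of 0.0772 and 0.0703). With both settings the counts at 8 hpa, at 12 hpa and in DMSO at 24 against 0 hpa were also 0, and with no filter the count at 24 hpa was 0. Limma-voom gave 0 in DMSO at 24 hpa (adjusted p for MSTRG.12467 of 0.0522). Fitting only the libraries compared gave 0 at 24 hpa and 1 in DMSO at 12 hpa. Testing only transcripts of at least 300 counts, in 13 models, gave 2 in DMSO at 8 hpa and 2 at 24 hpa. With replicate 3 left out of 3 groups together (UNC0379 at 0 and 24 hpa, DMSO at 24 hpa), the count was 1 at 3 hpa, 0 at 24 hpa, 2 in DMSO at 8 hpa, 1 in DMSO at 12 hpa and 6 for level averaged over the times. Upper-quartile normalization gave 5 for that level, in place of 3. A count minimum of 100 in place of 300 gave 39 models and one of 1000 gave 2.

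With each library left out in turn, the count for usage ranged from 1 to 2 averaged over the times, 0 to 1 at 3, 8, 12 and 24 hpa, 0 to 2 in DMSO at 8 hpa, 0 to 1 at 12 and 24 hpa, and 0 to 4 with UNC0379 at 24 hpa. For level it ranged from 3 to 6 averaged over the times and 1 to 4 in DMSO at 24 hpa, and for transcripts from 7 to 9. Whether the replicate numbers pair the samples is not settled, and the main fits treated them as unpaired. Same-numbered libraries had correlations of -0.025 to 0.353, mostly above 0 and over 0.1 in 5 of 15 pairs. The highest was that of replicate 3 at 24 hpa, and libraries with different numbers were not compared. With the replicate block the count was 1, in place of 0, with UNC0379 at 24 against 0 hpa, and no other count of calls changed by over 1.5 times. No group had the 4 libraries that a check for single outlying samples needs. Low counts limit shares most at 24 hpa, where UNC0379 replicate 3 had 0 to 3 counts in 6 of the models. That library had the fewest assigned reads, and the 13 models also held a smaller part of them, 0.0988%. In UNC0379 24 hpa replicates 1 and 2 they held 0.180% and 0.184%.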
